A study of Homo sapiens with 9 samples.

Results

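Intermediate filaments are the rope-like polymers that give cells and nuclei their mechanical strength. The proteins fall into classes by sequence: acidic type I and basic type II keratins, which polymerise only as mixed pairs, type III proteins such as vimentin and GFAP, the type IV neurofilaments with nestin and synemin, and the type V lamins of the nucleus. Glioma cells, like astrocytes and neural progenitors, are known for a network of vimentin, GFAP and nestin. Keratins are best known from epithelia. The 10 genes described here were KRT8, KRT15, KRT18, KRT19, VIM, GFAP, NES, SYNM, LMNA and LMNB1, found by their symbols among the 19932 gene symbols of the expression table. They were chosen from day 7 values of these same libraries, with KRT15 singled out as the member that fell most, so every day 7 value of a member below is a description and carries no test.

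The RNA was from U251, an established human glioblastoma line, infected with lentivirus carrying a short hairpin RNA. There were 3 groups of 3 libraries: sh-Luci-3d (control hairpin against luciferase, day 3), sh-Ptbp1-3d (hairpin against PTBP1, a splicing repressor, day 3) and sh-Ptbp1-7d (the same hairpin, day 7). Infected cells were moved to a neuronal induction medium with forskolin and dorsomorphin at 2 days, so all groups had received it, the day 7 group for longer. No sh-Luci library at day 7 was analysed here, so in both day 7 comparisons the knockdown cannot be told apart from the additional days in that medium.

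Values were FPKM, a fragment count corrected for transcript length and library size, which allows levels of different genes to be set side by side. Differences were fitted with limma on log2(FPKM + 0.1), and a gene was called when it changed more than 2-fold with a Benjamini-Hochberg adjusted p (FDR) below 0.05 at day 3 or below 0.01 at day 7. Nothing in the labels says that replicates were separate cultures, so p-values measure the spread between these libraries, which may be technical. PTBP1 itself was 115.7 ± 7.58 FPKM (SD, n = 3) in sh-Luci-3d, 63.87 ± 2.67 in sh-Ptbp1-3d and 50.48 ± 0.645 in sh-Ptbp1-7d. At day 3 its log2 difference was -0.85 ± 0.07 (SE) with a limma adjusted p of 0.00314, short of 2-fold, and the groups did not overlap. The FPKM sums were 367412 to 404922 per library, and sequencing depth is unknown from these values. Replicate 3 of sh-Luci-3d was the highest control library for 8 of the 10 members, by the widest margin for LMNA, so values resting on it are given with that library named.

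What all 10 proteins share is a coiled-coil rod whose last turn is nearly the same from keratins to lamins, the stretch where filament subunits overlap end to end. The bases that encode 8 residues of that rod end are shown for 8 of the genes. The stretches were found by a search for a residue pattern with Y or F first, LLE within, and G, A or D after it. Part of the identity between them was therefore set by that search, and nothing is read from its extent. The bases were read from GENCODE v29 transcripts (GRCh38), 5′ to 3′ on the coding strand, and capitals mark the 9 of 24 bases that were equal in all 8.
KRT8: TACaGgaagcTgcTgGAgGgcgag
KRT15: TACcGcagccTgcTcGAgGgccag
KRT18: TACcGccgccTgcTgGAaGatggc
KRT19: TACcGcagccTgcTcGAgGgacag
VIM: TACaGgaagcTgcTgGAaGgcgag
NES: TACaGgacccTccTgGAgGctgag
SYNM: TACcGggcctTatTgGAaGgagaa
LMNB1: TACaGgaaacTctTaGAaGgcgaa

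KRT15 was closest to KRT19 in this stretch, with 23 of 24 bases equal, and farthest from SYNM, with 13 equal. The keratin sites lay in coding exons on chromosomes 12 and 17: KRT8 at chr12:52898687-52898710 (minus strand, exon 7 of 9), KRT18 at chr12:52952308-52952331 (plus, exon 7 of 8), KRT15 at chr17:41515480-41515503 (minus, exon 8 of 10) and KRT19 at chr17:41523785-41523808 (minus, exon 6 of 6). VIM held its site in exon 6 of 9 at chr10:17235358-17235381 (plus), and LMNB1 at chr5:126819111-126819134 (plus, exon 6 of 11). In NES, on the minus strand of chromosome 1, and SYNM, on the plus strand of chromosome 15, the stretch was split between exons 2 and 3.

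At day 3 the filament genes of knockdown and control cells could not be separated by the test. Of the 10 members, 0 were called in this comparison, and the lowest adjusted p among them was 0.557 (LMNB1, limma). Over all 15551 genes tested 2 were called, or 0.0129% of them, and 1126 had an unadjusted p below 0.05. The median log2 difference of the members was 0.16, beside 0.01 over all genes, and 9 of 10 had a positive sign. Libraries did not overlap for 2 members, KRT19 and LMNB1, both higher in sh-Ptbp1-3d, where 5.86% of all genes were higher without overlap and 4.93% were lower without overlap. A test on 3 libraries a group that misses the threshold does not show that the levels were the same.

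By day 7 all 10 members had a lower mean than in sh-Ptbp1-3d, by amounts that ran from small (KRT8) to near disappearance (KRT15). KRT15, KRT19 and VIM passed the thresholds that call a fall, and 0 members passed those for a rise, where 5.90% of all genes tested were called lower and 8.31% higher. In 8 of 10 members every sh-Ptbp1-7d library lay below every sh-Ptbp1-3d library, as in 27.0% of all genes, and the exceptions were GFAP and NES. Against sh-Luci-3d the same 3 members were called lower, with 5.68% of all genes called lower and 8.93% higher, and the same 8 lay below without overlap, as in 23.1% of all genes. Because the members were picked on these values, nothing is read from the difference between their counts and those shares. In RNA from whole cultures, fewer cells that express a gene and less RNA in each cell cannot be told apart.

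**Figure D1:**
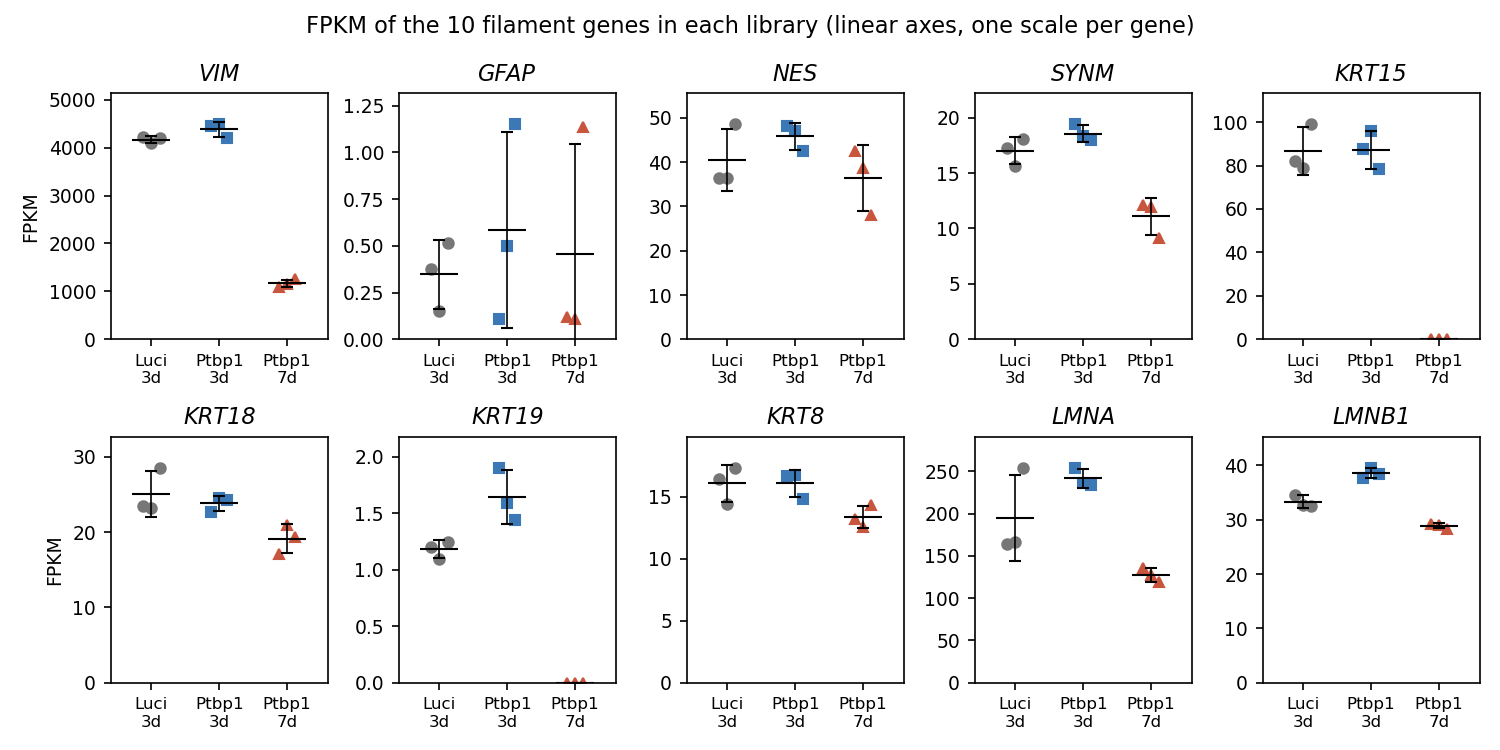
FPKM of each of the 10 members (vertical axes linear and starting at 0, a scale for each gene) in the 3 sh-Luci-3d libraries (grey circles), 3 sh-Ptbp1-3d libraries (blue squares) and 3 sh-Ptbp1-7d libraries (red triangles), with the mean (line) and SD (bars, the lower bar of GFAP running past 0). The day 7 points of VIM, SYNM, LMNA and LMNB1 lie below all others, and those of KRT15 and KRT19 lie at or next to 0. Those of GFAP and NES overlap the day 3 points, with the lowest day 7 point of NES below all of its day 3 points.

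VIM encodes vimentin, the main filament of mesenchymal and glial cells, and it was among the most abundant messages of the whole table. Its FPKM was 4213, 4088 and 4204 in the sh-Luci-3d libraries, 4446, 4488 and 4210 in sh-Ptbp1-3d, and 1094, 1163 and 1249 in sh-Ptbp1-7d. The day 3 libraries of both hairpins stood close together, and all day 7 libraries were far below them. Day 7 VIM was 26.7% of the sh-Ptbp1-3d mean, a log2 difference of -1.91 ± 0.10 (SE), and its rank by mean FPKM went from 7 to 25 of 22295 entries. VIM took 1.10% ± 0.00996 (SD, n = 3) of all FPKM in sh-Ptbp1-3d and 0.315% ± 0.0159 in sh-Ptbp1-7d. At day 3 the log2 difference from sh-Luci-3d was 0.07 ± 0.10 (SE), with a limma adjusted p of 0.899.

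GFAP, the filament of mature astrocytes, was barely expressed. Its FPKM was 0.375, 0.152 and 0.515 in sh-Luci-3d, 0.111, 0.497 and 1.15 in sh-Ptbp1-3d, and 0.118, 0.109 and 1.14 in sh-Ptbp1-7d. Between the sh-Ptbp1 groups the log2 difference was -0.49 ± 0.76 (SE), and 0.11 without sh-Ptbp1-3d replicate 3. The groups overlapped in every comparison, and replicate 3 was the highest library in each of the groups. The log2 difference at day 3 was 0.36 ± 0.76 (SE, limma adjusted p = 0.934), so the spread between libraries was larger than any difference between groups. Exons of CCDC103 and FAM187A on the opposite strand cover 18.4% of the GFAP exon bases, and reads from there could not be assigned without strand information.

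NES and SYNM encode nestin, a marker of neural progenitors, and synemin, large partners that assemble together with vimentin. NES was at 36.39, 36.38 and 48.59 FPKM in sh-Luci-3d, 48.18, 46.97 and 42.46 in sh-Ptbp1-3d, and 42.50, 38.78 and 28.07 in sh-Ptbp1-7d. These groups overlapped, with a log2 difference of -0.35 ± 0.16 (SE) between the sh-Ptbp1 groups. SYNM was at 17.27, 15.67 and 18.11 FPKM in sh-Luci-3d, 19.41, 18.35 and 17.95 in sh-Ptbp1-3d, and 12.16, 11.95 and 9.14 in sh-Ptbp1-7d. Here the day 7 libraries lay apart and below, at 59.7% of the sh-Ptbp1-3d mean, a log2 difference of -0.75 ± 0.11 (SE). At day 3 NES and SYNM had limma adjusted p-values of 0.818 and 0.838.

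KRT15, a type I keratin of basal and stem cells in stratified epithelia, was the most abundant keratin among the members at day 3. Its FPKM was 82.31, 78.67 and 99.02 in sh-Luci-3d, 87.62, 95.85 and 78.29 in sh-Ptbp1-3d, and 0.0998, 0.230 and 0.230 in sh-Ptbp1-7d. The day 3 groups overlapped fully, and the day 7 libraries were all close to 0. The day 7 mean was 0.214% of the sh-Ptbp1-3d mean, with a log2 difference of -8.29 ± 0.18 (SE) on the log2(FPKM + 0.1) scale, which understates a change that ends this near 0. With 1 added in place of 0.1 the difference was -6.21, and with 0.01 added it was -8.88. Without sh-Ptbp1-7d replicate 1 it was -8.04, so its size is not fixed as closely as the SE alone would have it. KRT15 went from rank 670 to rank 14647 of 22295 entries. At day 3 its log2 difference from sh-Luci-3d was 0.01 ± 0.18 (SE, limma adjusted p = 0.995). Only 0.7% of the 50-base stretches of its transcript occur in another gene, KRT13.

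KRT19, the smallest type I keratin and a marker of simple epithelia, was low and was then listed at 0. It had 1.20, 1.10 and 1.25 FPKM in sh-Luci-3d and 1.90, 1.59 and 1.44 in sh-Ptbp1-3d, and each of the sh-Ptbp1-7d libraries listed it at 0. The sh-Ptbp1-3d libraries were all above the sh-Luci-3d libraries, by 0.44 ± 0.20 on the log2 scale (SE), with a limma adjusted p of 0.696. No fold is given against the day 7 group.

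KRT8 and KRT18 encode the type II and type I partners of simple epithelia, which pair with each other, and they were the keratins that stayed nearest to their day 3 level. KRT8 was at 16.44, 14.46 and 17.36 FPKM in sh-Luci-3d, 16.70, 16.77 and 14.85 in sh-Ptbp1-3d, and 13.24, 12.58 and 14.36 in sh-Ptbp1-7d. KRT18 was at 23.50, 23.21 and 28.56 FPKM in sh-Luci-3d, 22.72, 24.57 and 24.31 in sh-Ptbp1-3d, and 17.11, 20.94 and 19.38 in sh-Ptbp1-7d. In both genes the day 7 libraries were the lowest and the day 3 groups overlapped, so the separation was complete but narrow. The day 7 means were 83.1% (KRT8) and 80.2% (KRT18) of those in sh-Ptbp1-3d, log2 differences of -0.27 ± 0.10 and -0.32 ± 0.10 (SE). At day 3 the log2 differences from sh-Luci-3d were 0.00 ± 0.10 for KRT8 and -0.07 ± 0.10 for KRT18, with limma adjusted p-values of 0.997 and 0.912.

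The KRT8 to KRT18 ratio, which sets the pair against each other within a library, was 0.644 ± 0.0493 (SD, n = 3) in sh-Luci-3d, 0.676 ± 0.0623 in sh-Ptbp1-3d and 0.705 ± 0.0919 in sh-Ptbp1-7d, and the groups overlapped. Both genes have many processed pseudogenes. Of the 50-base stretches of the transcript, 41.3% for KRT8 and 35.1% for KRT18 occur in other genes, so their levels depend on how shared reads were counted. They also overlap on opposite strands by 525 exon bases.

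LMNA encodes the A-type lamins, which stiffen the nucleus and are more abundant in stiff tissues. Its FPKM was 164.2, 165.9 and 253.5 in sh-Luci-3d, 254.3, 236.6 and 233.8 in sh-Ptbp1-3d, and 135.2, 127.5 and 119.4 in sh-Ptbp1-7d. Replicate 3 of sh-Luci-3d lay with the sh-Ptbp1-3d libraries rather than with its own group, and the day 7 libraries were below all others. LMNA at day 7 was 52.7% of the sh-Ptbp1-3d mean, a log2 difference of -0.92 ± 0.15 (SE), just short of the 2-fold threshold. Against sh-Luci-3d it was -0.58 ± 0.15, and -0.38 without sh-Luci-3d replicate 3. At day 3 the difference was 0.34 ± 0.15 (SE), with a limma adjusted p of 0.677. Without sh-Luci-3d replicate 3 it was 0.55 ± 0.07 with an adjusted p of 0.00612, still short of 2-fold and so not called.

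LMNB1 encodes a B-type lamin that most cell types carry and that is known to be lost in senescence. Its FPKM was 34.65, 32.68 and 32.61 in sh-Luci-3d, 37.70, 39.58 and 38.45 in sh-Ptbp1-3d, and 29.25, 29.03 and 28.37 in sh-Ptbp1-7d. The groups were separate in every comparison and narrow within themselves, with sh-Ptbp1-3d highest and sh-Ptbp1-7d lowest. At day 3 the difference was 0.21 ± 0.07 on the log2 scale (SE) and did not pass (limma adjusted p = 0.557). LMNB1 at day 7 was 74.9% of the sh-Ptbp1-3d mean. The LMNA to LMNB1 ratio was 4.74, 5.08 and 7.77 in sh-Luci-3d, 6.75, 5.98 and 6.08 in sh-Ptbp1-3d, and 4.62, 4.39 and 4.21 in sh-Ptbp1-7d, so the day 7 ratio was below both day 3 groups in every library, narrowly so for sh-Luci-3d. The ratio of LMNA to LMNB2, the other B-type lamin, was 3.857 ± 0.0832 (SD, n = 3) in sh-Luci-3d, 4.468 ± 0.105 in sh-Ptbp1-3d and 3.835 ± 0.260 in sh-Ptbp1-7d. There the day 7 libraries lay below sh-Ptbp1-3d but overlapped sh-Luci-3d.

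The order of the members by level was the same in both day 3 groups: VIM, LMNA, KRT15, NES, LMNB1, KRT18, SYNM, KRT8, KRT19 and GFAP. NES and LMNB1 did not overlap in either group, while SYNM and KRT8 overlapped in sh-Luci-3d. At day 7 the order was VIM, LMNA, NES, LMNB1, KRT18, KRT8, SYNM, GFAP, KRT15 and KRT19. NES overlapped LMNB1 there because its replicate 3 was low, GFAP overlapped KRT15, and KRT8 was above SYNM in every library.

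**Figure D2:**
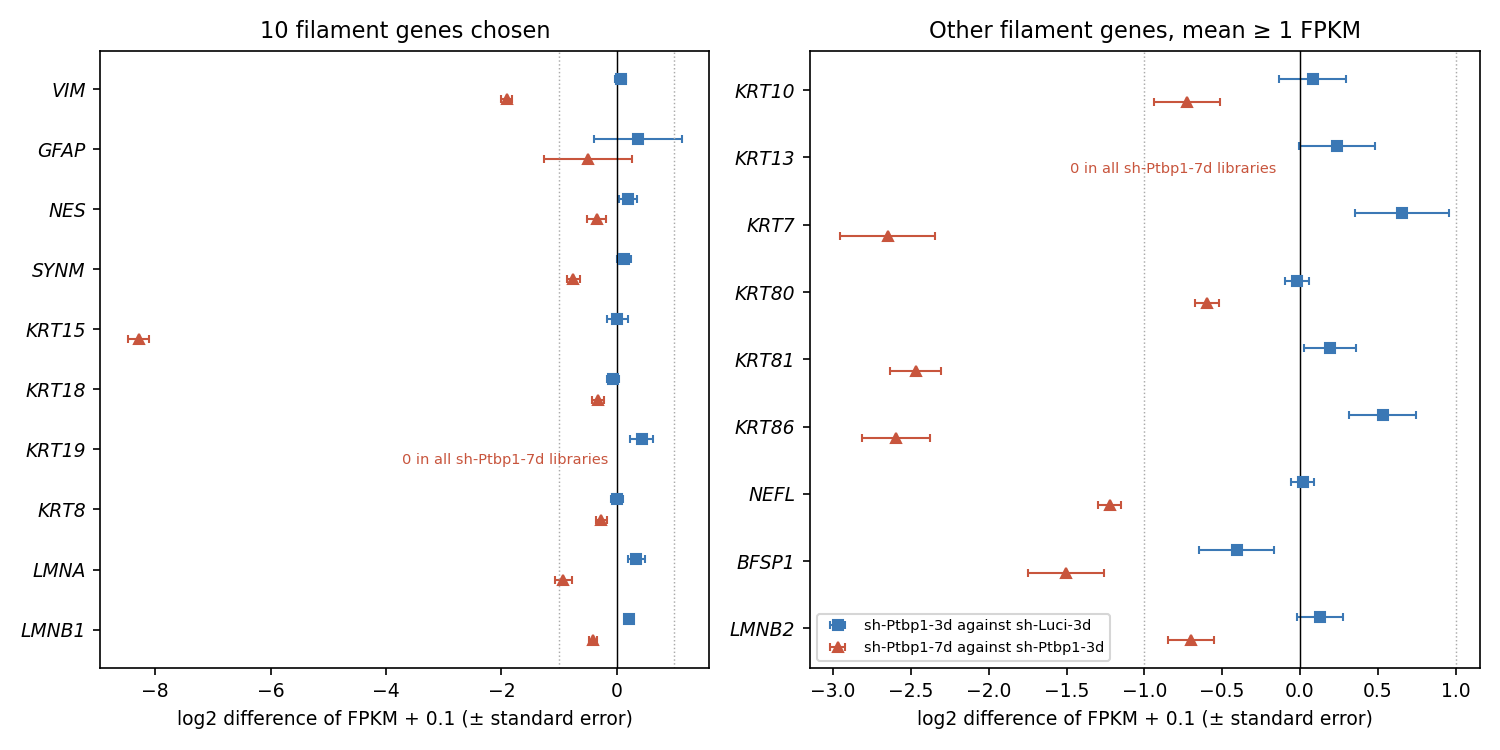
Fitted log2 difference of FPKM + 0.1 with its standard error (horizontal axes) for the 10 members (left) and other filament genes averaging 1 FPKM or more (right). Blue squares compare knockdown with control at day 3, and red triangles compare day 7 with day 3 of the knockdown. Dotted lines mark a 2-fold change, KRT19 and KRT13 have no day 7 point because they were listed at 0, and the day 7 points of the members run from -8.29 (KRT15) to -0.27 (KRT8).

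Filament genes outside the chosen 10 were not part of that choice and could be tested, although the list was made with earlier results known. Of 59 such genes, 29 were at 0 in every library and 14 passed the filter of a mean of 0.1 FPKM. At day 3, 0 of the 14 were called (lowest limma adjusted p 0.637, KRT86). Without sh-Luci-3d replicate 3, KRT81 was at 0.44 ± 0.06 and KRT86 at 0.76 ± 0.19 on the log2 scale (SE, limma adjusted p = 0.00876 and 0.0466), both short of 2-fold. From day 3 to day 7 of the knockdown, 8 were called lower (KRT7, KRT13, KRT81, KRT83, KRT86, NEFL, NEFM and BFSP1) and 0 higher, against 5.90% and 8.31% of all genes. With a pseudocount of 1 the count was 5, and with no filter on low values KRT23 was called as a rise, from 0.00985 ± 0.0171 to 0.189 ± 0.0591 FPKM. KRT13 and KRT83 passed the filter through the day 3 groups, where they were high, so their falls are description. KRT85 and INA, not called, also passed it through day 3 libraries alone. Nothing is therefore read from the difference between the count and those shares. The median log2 difference of the 14 was -1.49, beside -0.62 in the members and 0.09 over all genes. It includes KRT13, KRT83, KRT85 and INA, so it is description too and nothing is read from that comparison. In sh-Ptbp1-7d compared with sh-Luci-3d, a control of day 3, 7 were called lower and 0 higher, where 5.68% and 8.93% of all genes were.

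KRT81, a type II hair keratin, was the most abundant keratin of these cells. It was at 146.5, 148.0 and 245.4 FPKM in sh-Luci-3d, 207.3, 196.4 and 194.6 in sh-Ptbp1-3d, and 37.99, 35.52 and 34.28 in sh-Ptbp1-7d, with replicate 3 of sh-Luci-3d above the rest as for LMNA. It fell by 2.47 ± 0.17 on the log2 scale (SE) between the sh-Ptbp1 groups, with a limma adjusted p of 7.94e-07. Of its 50-base stretches 38.4% also occur in its neighbour KRT86, so the values of these genes may not be independent. NEFL, the light neurofilament chain of axons, went from 216.2 ± 4.05 FPKM to 92.66 ± 6.17 (SD, n = 3), a fall of 1.22 ± 0.07 on the log2 scale (SE, limma adjusted p = 3.65e-07).

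KRT7, a type II keratin of simple epithelia, fell from 2.46 ± 0.314 to 0.313 ± 0.0876 FPKM (SD, n = 3), with a limma adjusted p of 3.99e-05. The hair keratin KRT83 went from 0.657 ± 0.299 to 0.0252 ± 0.0265 FPKM, given without a p because of the filter. KRT80, a type II keratin, went from 27.07 ± 1.25 to 17.86 ± 0.868 FPKM, KRT10 from 10.34 ± 0.321 to 6.26 ± 0.982 and LMNB2, the other B-type lamin, from 54.06 ± 1.52 to 33.41 ± 4.31 (SD, n = 3), each short of 2-fold. BFSP1, a lens filament protein, fell from 1.81 ± 0.317 to 0.579 ± 0.145 FPKM (limma adjusted p = 0.000442). PRPH, the peripheral neuron filament peripherin, was the only one of the 14 with a positive sign between the sh-Ptbp1 groups, at 0.492 ± 0.114 and 0.751 ± 0.0316 FPKM (limma adjusted p = 0.0702). INA, an axonal filament, was detected in 1 library alone, sh-Ptbp1-3d replicate 3, at 1.84 FPKM.

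Added up within a library, the cytoplasmic filament genes made 4798 ± 126 FPKM in sh-Luci-3d, 5044 ± 172 in sh-Ptbp1-3d and 1405 ± 67.8 in sh-Ptbp1-7d (SD, n = 3). VIM made 86.9% ± 0.0624 of that sum in sh-Ptbp1-3d and 83.1% ± 1.58 in sh-Ptbp1-7d. The share of KRT15 went from 1.73% ± 0.121 to 0.0131% ± 0.00492. Genes that kept more of their level took larger shares: NES went from 0.909% ± 0.0323 to 2.61% ± 0.648, and KRT8 from 0.319% ± 0.0110 to 0.953% ± 0.0535. Type I keratins summed to 125.3 ± 9.05 and then 26.09 ± 1.35 FPKM, and type II keratins to 252.5 ± 9.91 and then 68.37 ± 2.47. Beside vimentin, NEFL, KRT81 and KRT15 held the largest mean shares in sh-Ptbp1-3d. In sh-Ptbp1-7d NEFL was first, and NES and KRT81 (2.57% ± 0.260) followed without a fixed order, NES being ahead in replicates 1 and 2 and KRT81 in replicate 3.

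**Figure D3:**
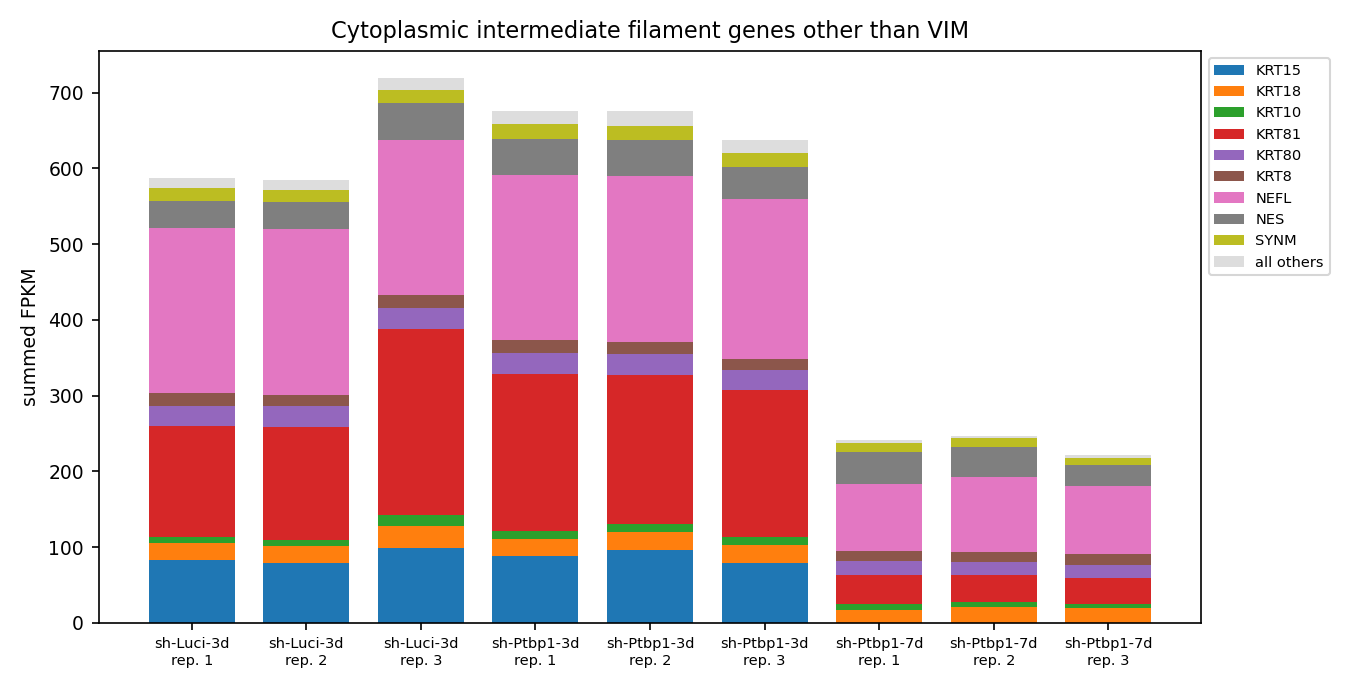
Summed FPKM (vertical axis, linear from 0) of the cytoplasmic filament genes other than VIM in each of the 9 libraries, stacked by gene. The sums are 584.3 to 719.2 FPKM in the day 3 libraries and 221.9 to 247.2 FPKM at day 7, and the blue KRT15 segment is absent to the eye in the day 7 bars.

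KRT15, KRT19 and KRT13 are direct neighbours in the type I keratin cluster of chromosome 17. In GRCh38 (GENCODE v29) KRT15 spans chr17:41513743-41522529 on the minus strand, with KRT19 1087 bases away on one side and KRT13 8037 bases away on the other. KRT13, a keratin of mucosal epithelia, averaged 1.66 ± 0.553 FPKM in sh-Luci-3d and 1.92 ± 0.297 in sh-Ptbp1-3d (SD, n = 3), and was listed at 0 in each sh-Ptbp1-7d library. A window of 300 kb each side of KRT15 was chosen after the values were seen, so it carries no test. It held 31 other protein-coding genes of the table, 17 of them at 0 in every library, and 7 reached a mean of 1 FPKM in a sh-Ptbp1 group.

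Of those 7, KRT13 and KRT19 were lower at day 7 without overlap, EIF1 overlapped, and the 4 farthest genes were higher without overlap. Among all genes 27.0% were lower without overlap between these groups, and the share higher without overlap was not counted. Nothing is read from the position of these genes. EIF1, a translation initiation factor, was at 157.8 ± 0.851 FPKM in sh-Ptbp1-3d and 157.4 ± 12.5 in sh-Ptbp1-7d (SD, n = 3). HAP1, which binds huntingtin, went from 0.307 ± 0.0478 to 5.13 ± 0.224 FPKM, P3H4 from 18.04 ± 0.390 to 61.81 ± 2.14, and its neighbour FKBP10, a chaperone of collagen, from 49.77 ± 2.22 to 183.5 ± 4.03. JUP is the junction protein plakoglobin, which links keratins to desmosomes. It lies 232074 bases from KRT15 and rose from 25.45 ± 2.20 to 125.3 ± 7.07 FPKM, a log2 difference of 2.30 ± 0.09 (SE, limma adjusted p = 2.15e-08).

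Proteins that anchor filaments moved in both directions. Of 16 plakins and desmosome genes 9 were tested, and from day 3 to day 7 of the knockdown, besides JUP the plakophilin PKP3 was called, falling from 4.70 ± 0.884 to 1.95 ± 0.195 FPKM (SD, n = 3, limma adjusted p = 0.000323). Of 17 partners of the nuclear lamina, all tested, SUN2 was called: this inner nuclear membrane protein, which binds lamins and the cytoskeleton, fell from 29.88 ± 1.02 to 13.79 ± 1.90 FPKM (limma adjusted p = 1.65e-05). SYNE1, a nesprin that binds SUN proteins, went from 3.15 ± 0.604 to 6.32 ± 0.137 FPKM and was called higher without sh-Ptbp1-3d replicate 1 (1.11), sh-Ptbp1-3d replicate 3 (1.03) or sh-Ptbp1-7d replicate 3 (1.01). Compared with sh-Luci-3d, SUN2 was just short of a 2-fold difference and was not called. At day 3, 0 genes of either list were called. These 3 calls among 9 and 17 tested genes stand beside 5.90% of all genes called lower and 8.31% called higher.

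Markers of other cell types were read beside the keratin values. Of 17 epithelial markers 15 were below 1 FPKM in every library, OVOL2 was at 0 throughout, and their summed FPKM was 2.78 to 2.80 in sh-Luci-3d, 2.66 to 2.98 in sh-Ptbp1-3d and 2.31 to 3.29 in sh-Ptbp1-7d. Of the 5 tested from day 3 to day 7 of the knockdown, 3 had a negative sign (median -0.66), and CLDN4, a tight junction protein, was the single call. CLDN4 went from 0.686 ± 0.209 to 1.51 ± 0.387 FPKM (SD, n = 3, limma adjusted p = 0.00871), a call lost when sh-Ptbp1-3d replicate 3 (0.84, adjusted p = 0.0368) or most other single libraries were left out. The adhesion protein CDH3 (1.05 ± 0.0762 to 0.531 ± 0.177 FPKM), ELF3 (0.237 ± 0.150 to 0.0491 ± 0.00407) and GRHL1 (0.351 ± 0.0585 to 0.189 ± 0.0647) were lower at day 7 without overlap and were not called. ELF3 passed the filter of a mean of 0.1 FPKM through the day 3 groups, where it was high. Its fall is therefore description, as is its part in the signs and median of the list. ST14 (0.159 ± 0.00471 to 0.202 ± 0.0124 FPKM) was higher without overlap and was not called either. Lower without overlap held for 27.0% of all genes.

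Of 10 astroglial markers 7 were tested over the same days, with a positive sign in 4 and a median of 0.54. S100B and SLC1A3, a glutamate transporter, rose, and CD44, a hyaluronan receptor, fell from 165.6 ± 10.9 to 62.33 ± 2.12 FPKM (SD, n = 3). CD44 made up most of the summed list, which was 220.3 to 229.2 and then 117.9 to 126.0 FPKM. GJA1 (6.76 ± 0.587 to 12.57 ± 0.296 FPKM) and GLUL (2.81 ± 0.243 to 4.12 ± 0.347) were higher at day 7 without overlap, short of 2-fold. SOX9 (40.64 ± 0.548 to 33.33 ± 0.933 FPKM) and FABP7 (6.16 ± 7.65 to 1.09 ± 0.438) were lower without overlap and were not called. The sh-Ptbp1-3d mean of FABP7 rested on replicate 3, at 14.99 FPKM. Over all genes 27.0% were lower without overlap. The S100B call was lost without sh-Ptbp1-7d replicate 1 (limma adjusted p = 0.0104).

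Of 10 neuronal markers 8 were tested from day 3 to day 7 of the knockdown, with a negative sign in 6, a positive sign in 2 and a median of -1.28. TUBB3 and GAP43, 2 genes, were called lower and 0 higher, where 5.90% and 8.31% of all genes were. STMN2, DCX and ELAVL3 passed the filter only through sh-Ptbp1-3d replicate 3, so nothing is read from these signs and their median. TUBB3 fell from 316.9 ± 4.57 to 118.2 ± 7.98 FPKM (SD, n = 3) and made up most of the summed list, which was 336.3 to 362.6 and then 158.8 to 166.2 FPKM. MAP2, a dendritic microtubule protein, went from 20.34 ± 3.25 to 38.89 ± 4.22 FPKM without overlap, a log2 difference of 0.94 ± 0.16 (SE, limma adjusted p = 0.00058), short of 2-fold. SNAP25, of the synaptic fusion machinery, went from 2.68 ± 1.02 to 4.32 ± 0.450 FPKM and was called higher against sh-Luci-3d. Without sh-Ptbp1-3d replicate 3 both were called higher between the sh-Ptbp1 groups, at 1.06 (MAP2) and 1.01 (SNAP25).

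That library stood apart for neural genes. In sh-Ptbp1-3d replicate 3 STMN2 was at 11.47 FPKM and listed at 0 in every other library, and DCX was at 2.14 and ELAVL3 at 1.47 beside at most 0.0346 elsewhere. In sh-Ptbp1-3d the GAP43 values were 0.602, 0.987 and 3.88 FPKM, those of sh-Ptbp1-7d were 0.0882, 0.334 and 0.187, and its call as lower (limma adjusted p = 0.00423) was lost without sh-Ptbp1-7d replicate 1 (0.0189) or replicate 3 (0.0145). Among the members GFAP was highest in that library of its group. All 10 cell cycle markers were tested from day 3 to day 7 of the knockdown, and all 10 had a negative sign (median -0.94). Of these, 5 were called lower, CCNB1 and MKI67 among them, where 5.90% of all genes were. The list summed to 356.1 to 383.9 and then 190.3 to 201.5 FPKM. The part of these shifts in the filament values was not tested.

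Genes whose profile over the 9 libraries lay closest to a member were found by the root mean square distance of centred log2(FPKM + 0.1) values. VIM was closest to ANXA2 (distance 0.048), a membrane-binding annexin, then SCARB1 (0.051) and RPLP0 (0.071), among 11339 genes. KRT19 was closest to COL6A3 (0.234), PLPP4 (0.238) and STRA6 (0.256). Because KRT19 was listed at 0 at day 7, the size of its fall, and so these matches, depend on the 0.1 added. With that same 0.1 added, KRT15 had no near match, its closest being CCL26 at 1.72. CCL26 had 2.43 FPKM on average in sh-Ptbp1-3d and was listed at 0 at day 7, so this distance depends on it too.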

How the data were processed

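The authors deposited FPKM values per gene for 9 RNA-seq libraries, 3 in each group, made from reads aligned to GRCh38 with HISAT2 per the submitters' processing notes. The table held 22295 entries, of which 2363 are loci assembled by the authors. Their positions, also deposited, were of another kind of value and were compared with GENCODE v29, where 0 overlapped a member. Groups came from the sample titles.

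From the FPKM values, log2(FPKM + 0.1) was fitted with limma 3.58.1 in R 4.3.3 for 15551 genes averaging 0.1 FPKM or more over the libraries, with 3 groups in a single model and an intensity trend. P-values were adjusted over all genes tested. The script was tested on simulated data. Figures used matplotlib 3.10.9 in Python 3.11.15. The members, lists and thresholds were chosen with earlier results of these data known. Named genes were the members, PTBP1, other filament genes at 1 FPKM or called, listed genes past the thresholds and the nearest profiles. HAP1, P3H4, FKBP10, EIF1, PRPH, INA, KRT23, KRT85 and the uncalled or single-library marker genes were named after their values were seen. Alternatives were other pseudocounts, filters and scalings, other fits and leaving out each library, for the marker lists chosen after seeing the data. Some sequences are not reported here.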

Additional observations from a re-analysis of the deposited data

How the results depend on the processing

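At day 3 the count of members called stayed at 0 under every alternative run. From day 3 to day 7 of the knockdown it ran from 2 (a filter at 1 FPKM, which drops KRT19) to 4 (median-ratio scaling, where LMNA reached -1.01). The other filament genes called there numbered 5 with a pseudocount of 1, beside 8, and BFSP1 was then at -0.83; with no filter they numbered 9, of which KRT23 was higher. Scaling moved the median of all genes from 0.09 to 0.19 (TPM), 0.01 (median ratio) or -0.01 (quantile), so a change near 0 has no fixed sign. Between the hairpins at day 3 the sign of KRT8 turned to -0.017 (TPM), -0.009 (median ratio) and -0.011 (quantile), that of KRT15 to -0.009, -0.001 and -0.038, and that of NEFL to -0.003 (TPM) and -0.042 (quantile), none of them called. Leaving out single libraries turned further signs there, with log2 differences of -0.07 to 0.061 for KRT8, -0.058 to 0.112 for KRT15, -0.119 to 0.03 for KRT18, -0.242 to 1.043 for GFAP, -0.07 to 0.379 for KRT10, -0.053 to 0.02 for KRT80 and -0.012 to 0.034 for NEFL. Without sh-Luci-3d replicate 3, 59 genes were called at day 3 in place of 2, with 0 members. Between the sh-Ptbp1 groups GFAP ran from -1.34 to 0.112 and against sh-Luci-3d from -0.975 to 0.308, and NES reached 0.019 against sh-Luci-3d when sh-Ptbp1-7d replicate 3 was dropped. The cause was not tested.

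Same-numbered libraries did not deviate together (correlations of -0.02 to 0.06), and not every library correlated best with its own number. The main fit therefore used no pairing. Deviations within a group of 3 libraries sum to 0, which ties these correlations together, so they do not settle whether the numbers pair libraries. With the replicate block, 0, 3 and 3 members were called in the comparisons at day 3, between the sh-Ptbp1 groups and against sh-Luci-3d, and 0, 8 and 8 other filament genes.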
